A study of Arabidopsis thaliana with 14 samples.

Results

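CLIP of CPSF70 in Arabidopsis thaliana seedlings gave 2923 nuclear peaks that overlapped no mapped N6-methyladenosine (m6A). CLIP peaks are short stretches of RNA recovered with the protein after crosslinking. The control behind the calls is not stated, so contact with the protein and background cannot be told apart here. A peak was kept when it lay on a nuclear chromosome in CLIP replicate 1, overlapped a peak of CLIP replicate 2 by at least 1 nt, and overlapped no m6A peak of either m6A replicate. Replicate 1 held 14606 nuclear peaks and replicate 2 held 12427. Of those of replicate 1, 3491 were shared by both CLIP replicates and lay on m6A, and 8192 had no partner in replicate 2. The peaks were chosen by their CLIP and m6A calls alone, so the presence and strength of CLIP and the lack of m6A are descriptions here and were not tested.

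The CLIP libraries came from 12-day seedlings of a CPSF70 overexpression line (n = 2) and used an anti-FLAG pull-down after formaldehyde crosslinking and RNase T1. m6A was mapped in 14-day wild-type seedlings (n = 2) with an anti-m6A antibody on fragmented poly(A) RNA. A-seq2, which primes reverse transcription on the tail itself, gave the poly(A) sites of 12-day seedlings of the wild type Col0 (n = 2) and of the cpsf70 mutant (n = 2), and RNA-seq covered the same genotypes with 2 libraries each. All seedlings grew under the same long-day regime, and the labels name no treatment. CLIP thus reports a line with extra CPSF70, while m6A and poly(A) sites report seedlings with their own level of it, and m6A was read in seedlings 2 days older. Neither the promoter nor the number of lines behind the overexpression was stated in the labels. Nor do they tell whether replicates were grown from separate plantings, so p-values reflect the spread of these samples only, and that spread could be technical.

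CPSF70 is the longer product of the CPSF30 gene of Arabidopsis. It joins the zinc-finger core of CPSF30, a subunit of the complex that cuts pre-mRNA and hands it to poly(A) polymerase, to a YTH domain, the fold that reads m6A. In plant mRNA m6A is concentrated toward the 3′ end, near the stop codon and in the 3′ untranslated region, where the poly(A) signal also lies. The complex binds close to the cleavage site, and a gene with several poly(A) sites can end its transcripts at a proximal or a distal one.

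The mutated gene, CPSF30, read low in the mutant: its values in the authors' deposited table were 5.58 and 4.87 FPKM in Col0 against 0.542 and 0.593 FPKM in cpsf70. The groups did not overlap. Root and leaf genes were both read in these whole seedlings. In Col0 the root gene PYK10 stood at 1361 and 1088 TPM and the antenna gene LHCB1.3 at 3807 and 2771 TPM. The other root markers of the gene list were lower, with mean Col0 totals from 17.9 to 142 TPM. The tables of the 4 poly(A) libraries hold 703180 to 799310 TPM on nuclear sites. Col0 tables and that of cpsf70 replicate 2 list clusters of at least 3 TPM, while that of cpsf70 replicate 1 goes down to 0 TPM. Both cpsf70 tables carry the same internal name, and their values differ. Neighbouring clusters with gaps of at most 24 nt were joined, giving 25766 sites listed in Col0. The test covered the 13668 present in all 4 libraries. A site below the floor of a table is thus left out, and the part of this in the changes was not tested.

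The peaks without m6A were about as strongly enriched as those on m6A. Their median fold enrichment, the authors' value for a peak over the background of the peak caller, was 4.95 in CLIP replicate 1 (quartiles 3.80 and 6.34) and 4.94 in replicate 2 (quartiles 3.83 and 6.27). For the 3491 peaks on m6A the medians were 4.80 and 5.18. Peaks of replicate 1 with no partner in replicate 2 had a median of 3.57. Across the 2923 peaks the log2 folds of the 2 replicates correlated with r = 0.70, a description over peaks that share libraries. The peaks were short, with a median length of 55 nt and a range of 50 to 302 nt.

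The edge of the rule was sparsely filled. Only 1 peak met its replicate 2 partner over 5 nt or less, with a fold of 2.81 in replicate 1. A further 5 peaks free of m6A lay 1 to 5 nt from a replicate 2 peak and so fell outside, with a median fold of 2.94. On the m6A side, 24 of the kept peaks ended 1 to 5 nt short of an m6A peak, with median folds of 4.57 and 5.88. Another 27 peaks overlapped m6A by 1 to 5 nt and were left out, with median folds of 4.66 and 5.54. Most kept peaks were far from any m6A. The median gap to the nearest m6A peak was 1461 nt, and 214 peaks (7.32%) lay within 100 nt of one. A missing call is not the absence of m6A: of the 3491 peaks on m6A, 377 overlapped an m6A peak of 1 replicate only.

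Peaks without m6A were spread over the whole gene, whereas those on m6A gathered at its 3′ end. The strand of a gene was inferred from Col0 poly(A) tags, and 1964 of the 2316 peaks in protein-coding genes had a host with a strand. Split into steps of 20% of gene length, the first step held 28.2% of them (exact binomial interval 26.2 to 30.3), the next 3 held 16.5%, 16.5% and 17.0%, and the last held 21.8% (19.98 to 23.7). The peaks on m6A had 83.1% (81.7 to 84.4) in the last step and 3.37% in the first. The median place was 47.6% of the way along the gene without m6A and 92.7% on m6A. Since m6A itself sits near gene ends, this contrast follows in part from the way the classes were formed and carries no test. The 8192 peaks of replicate 1 alone had 20.9% in the first step and 32.5% in the last.

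**Figure D1:**
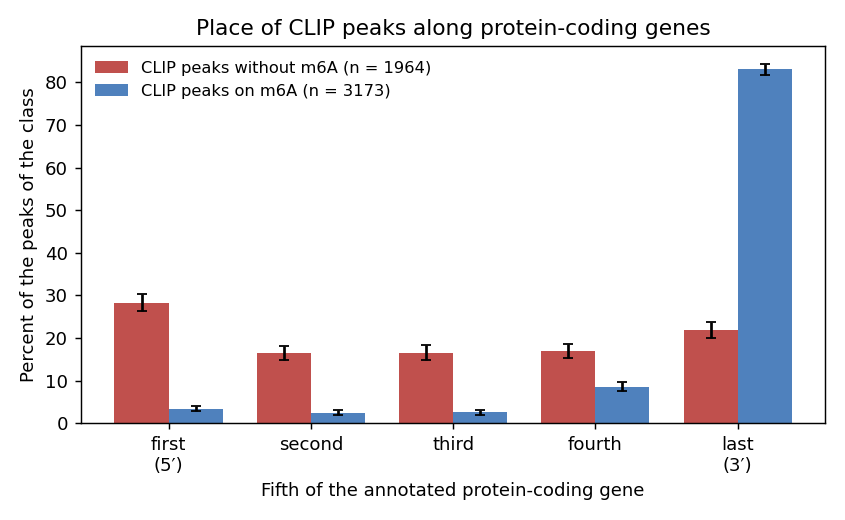
Share of CLIP peaks (percent of the class) in each 20% step of the annotated protein-coding gene, from 5′ to 3′. Bars give the 1964 peaks without m6A and the 3173 peaks on m6A with a host of known strand, with exact 95% binomial intervals; the last step holds 21.8% of the former and 83.1% of the latter.

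Measured from the annotated gene end, the median peak without m6A lay 1353 nt before it (quartiles 559 and 2290), and 18.5% lay within 300 nt. For peaks on m6A the median was 182 nt, and 73.2% lay within 300 nt. The intervals cover counting error only, and peaks of one gene are not independent.

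A minority of these peaks lay at a poly(A) site used in Col0. A Col0 site lay within 100 nt of 835 peaks, or 28.6% (26.9 to 30.2), and 618 of them overlapped it. Among peaks on m6A the share was 84.7% (83.5 to 85.9), and among those of replicate 1 alone it was 23.6%. The median gap to the nearest Col0 site was 679 nt without m6A and 0 nt on m6A. Widening the window to 1000 nt brought the share to 58.2% without m6A and 94.6% on m6A. Against single clusters, left unjoined, the shares within 100 nt were 28.0% and 84.1%.

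The peaks with the strongest calls lay at a poly(A) site more often. Of the 574 peaks with a −log10 p of at least 10 in both CLIP tables, 43.6% lay within 100 nt of a Col0 site. The median fold near a site was 4.96 and 5.12 in the CLIP replicates, and that of peaks inside coding genes away from a site was 4.89 and 4.87.

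Where peaks without m6A lay at a poly(A) site, their midpoints fell about as often downstream of the cleavage position as upstream. The distance was taken from the peak midpoint to the strongest Col0 cluster of the site. Of the 835 peaks, 50.2% (46.7 to 53.6) had their midpoint upstream, and the median offset was −1.0 nt (quartiles −49.3 and 26.8). On m6A, 73.1% (71.4 to 74.6) of 2958 lay upstream and the median offset was −32.0 nt. Peaks found in CLIP replicate 1 alone, of whatever m6A state, resembled the latter, with 68.0% (65.8 to 70.0) of 1935 upstream and a median of −35.0 nt. Peaks lying wholly downstream of the nearby site made up 9.46% without m6A and 2.60% on m6A. Joined sites wider than 100 nt blur this measure and served 30.1% of the nearby peaks without m6A and 45.6% of those on m6A. With narrower sites alone, 47.4% and 74.1% lay upstream. The sets also differ in host: 619 of the 835 lay in protein-coding genes, against 2930 of the 2958 on m6A. The offset was not split by host class. CLIP peaks carry no strand, and the nearby site lay on the strand of the host for 678 of the 701 peaks where both were known.

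**Figure D2:**
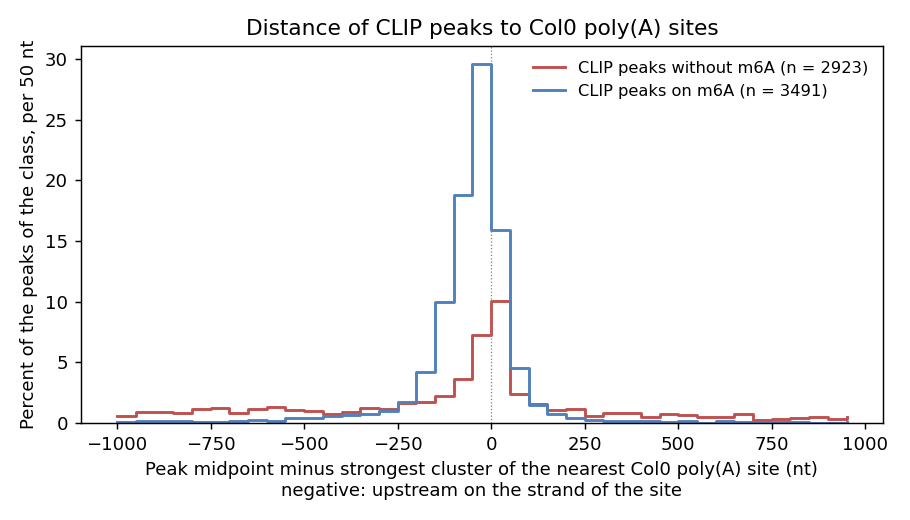
Distance in nt from the strongest cluster of the nearest Col0 poly(A) site to the CLIP peak midpoint, in steps of 50 nt, as the percent of all peaks of the class; negative values are upstream. Peaks on m6A (n = 3491) form a tall peak just upstream of the site, while those without m6A (n = 2923) form a low one astride it, with medians of −32.0 and −1.0 nt among peaks within 100 nt of a site.

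The rest of the peaks fell into 5 sets. The largest held 1342 peaks (45.9%) inside protein-coding genes that have a Col0 poly(A) site elsewhere, with a median place of 33.6% along the gene. Another 355 (12.1%) lay in protein-coding genes with no assigned Col0 site. Sites were assigned only to genes with an inferred strand, and 26 of these 355 peaks had such a host. A further 241 lay outside annotated genes, and 31 in lncRNA genes or pseudogenes. Genes annotated as tRNA, snoRNA, snRNA, miRNA, rRNA, misc_RNA or ncRNA held 119. Of the 2316 peaks in protein-coding genes, 1631 (70.4%) had an m6A peak elsewhere in the host. The same share was 83.9% for peaks of CLIP replicate 1 alone, a set that includes peaks on m6A. Among protein-coding genes with a Col0 poly(A) site, 69.6% to 85.3% held an m6A peak, depending on the step of level.

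Genes annotated as tRNA, snoRNA, snRNA, miRNA, rRNA, misc_RNA or ncRNA held 205 of the peaks, or 7.01% (6.11 to 8.00). They held 19 of the peaks on m6A (0.544%) and 1.07% of those in replicate 1 alone. The 205 comprised 58 peaks in snoRNA genes, whose products guide RNA modification, and 52 in tRNA genes. Another 28 lay in snRNA genes, which supply the cores of the spliceosome. The others were 28 in misc_RNA, 22 in ncRNA, 15 in miRNA and 2 in rRNA genes. Taken by gene, 19.9% of annotated snoRNA genes (57 of 287), 28.0% of snRNA genes (23 of 82) and 8.32% of tRNA genes (52 of 625) carried such a peak. Peaks on m6A touched 0 snoRNA genes and 0 snRNA genes, which allows shares of up to 1.28% and 4.399% by the exact interval, and 2 tRNA genes. m6A was mapped in poly(A) RNA, which holds few RNAs without a tail. In genes of such RNAs the lack of an m6A call and the lack of m6A cannot be told apart.

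The tRNA peaks were the strongest class. Their median fold was 10.3 in replicate 1 and 8.26 in replicate 2, against 4.82 and 4.86 for peaks in protein-coding genes. The snoRNA peaks were weaker than either, at 3.59 and 4.15. In all, 81 peaks had a fold of at least 10 in both replicates, of which 16 lay in tRNA genes, 31 in protein-coding genes and 27 outside annotated genes. Nuclear genomes hold near-identical copies of tRNA, snRNA and rRNA genes, so the copy from which the reads came is uncertain.

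**Figure D3:**
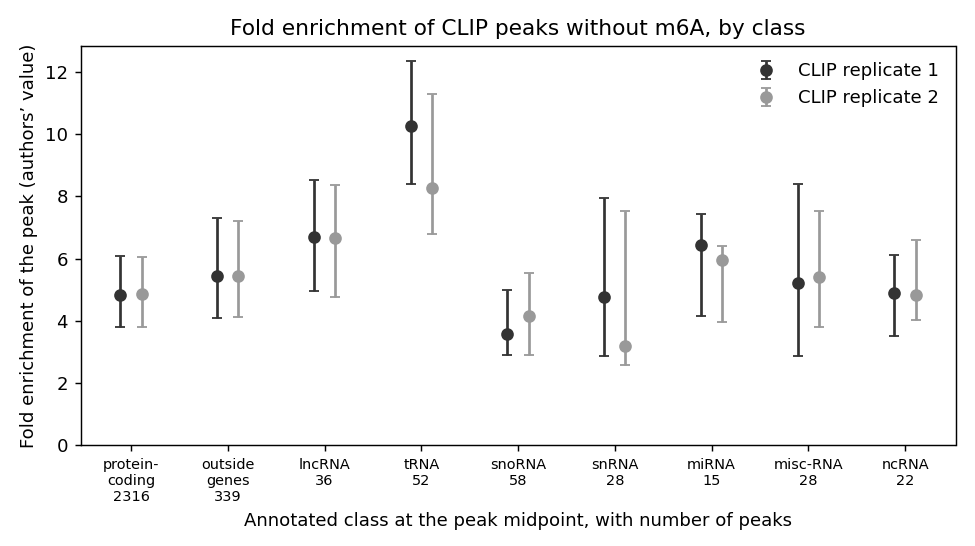
Fold enrichment of CLIP peaks without m6A (the authors' value, linear axis from 0) by the annotated class at the peak midpoint. Points are medians and bars are quartiles over peaks for CLIP replicate 1 and replicate 2, with the number of peaks under each class; the 52 tRNA peaks stand highest, with medians of 10.3 and 8.26.

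The 10 peaks with the highest smaller fold of both replicates were led by one in AT1G08875, a gene annotated as misc_RNA, at chr1:2107257-2107330 (TAIR10), with folds of 16.7 and 18.5. Another 4 lay in tRNA genes. Peaks in AT5G09755 reached 15.4 and 15.8, in AT1G29210 15.4 and 14.7, in AT2G46120 15.3 and 14.3, and in AT1G75570 14.1 and 14.5. These tRNA peaks were 62 or 63 nt long, and the nearest Col0 poly(A) site was 2060 nt or more away. The protein-coding genes AT3G05730 and AT1G02590 held 1 each, with folds of 15.3 and 15.1 in the former and 15.0 and 14.5 in the latter.

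The other 3 of the 10 lay outside annotated genes, at chr1:29143048-29143121, chr1:12084033-12084114 and chr1:2111006-2111080. Their folds were 19.5 and 16.5, 14.4 and 14.6, and 16.0 and 14.4. The last pair overlapped Col0 poly(A) sites assigned to the snoRNA genes AT1G06667 and AT1G04527. Among other small RNAs, named after their values were seen, the precursor of the miRNA MIR157c carried a peak of 12.8 and 12.2, the spliceosomal snRNA genes U2.2 and U4.7 carried 11.3 and 10.6, and 12.5 and 8.62, and the snoRNA gene U3D, whose product acts in rRNA processing, carried 11.1 and 10.3.

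Peaks without m6A fell in 2249 genes, and 1971 of these held a single one, 242 held 2 and 36 held 3 or more. AT2G48080 had the most, 9 peaks with folds of 3.89 to 8.55 in replicate 1, and no m6A peak or assigned Col0 poly(A) site. CPSF30, the gene of CPSF70 itself, held 5 with folds of up to 13.2 and 15.8, beside 8 peaks on m6A. The CLIP line overexpresses this gene, and the part of that transcript in the peaks was not tested; the poly(A) clusters of CPSF30 are not analysed here. LOX3, a lipoxygenase of jasmonate synthesis, AT4G32020 and the immune receptor gene RPP5 held 5 each. LOX3 had no Col0 poly(A) site, while AT4G32020 stood at 160 TPM and RPP5 at 12.8 TPM. Genes with 4 included GLU1, the ferredoxin-dependent glutamate synthase, SEX1, a starch kinase, EBF2, an F-box protein of ethylene signalling, and the cellulose synthase CESA6.

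The share of genes with a peak was larger at higher levels of the gene in Col0. Protein-coding genes with no assigned Col0 site held a peak without m6A in 2.69% of cases (374 of 13899). These include genes left without a strand, whatever their level. The share was 7.69% below 10 TPM, 12.5% from 10 to 30, 20.4% from 30 to 100 and 29.0% (262 of 904) above 100 TPM. For peaks on m6A the share went from 2.73% to 50.3% over the same steps. Altogether 2069 protein-coding genes overlapped a peak without m6A and 3219 a peak on m6A, and 524 overlapped both, which is 25.3% of the former and 16.3% of the latter.

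The gene lists differed in how many hosts they held. Of 29 photosynthesis genes 12 (41.4%) overlapped a peak without m6A, and of 10 translation genes 4, against 7.54% of all protein-coding genes and 29.0% of those above 100 TPM. Peaks on m6A overlapped 86.2% of these photosynthesis genes and 10 of the 10 translation genes, against 11.7% of all protein-coding genes and 50.3% of those above 100 TPM. The photosynthesis hosts were the antenna genes LHCB1.1, LHCB1.3, LHCB2.1, LHCB2.2, LHCB3 and LHCA2, the Rubisco small subunits RBCS1B and RBCS2B, Rubisco activase RCA, and the Calvin cycle genes GAPA1, GAPB and FBA1. Their totals in Col0 replicate 1 ran from 320 TPM for FBA1 to 4318 TPM for LHCA2, and the strongest peak among them was 1 of 3 in GAPA1, with a fold of 7.01 in replicate 1. All 12 had such a peak within 100 nt of a Col0 site, but sites are many or wide in several of these genes. RCA had 9 Col0 sites, GAPA1 and FBA1 had 7 each, and the joined site of LHCB1.3 was 1074 nt wide. The peak lay 13.8% along LHCA2, 20.5% along GAPB and 98.3% along FBA1, so nearness to a site is not nearness to the gene end. LHCB1 and LHCB2 copies and RBCS copies are near-identical, so the split of reads among them is uncertain.

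Of 27 genes of the polyadenylation machinery 3 held a peak without m6A: CPSF30 and the poly(A) polymerases PAPS1 and PAPS4, with 1 peak each in the latter pair. ECT2, a YTH reader of m6A, was the only host among 12 genes that write, erase or read m6A. Its 2 peaks lay 23.6% and 36.7% along the gene, with folds of 4.06 and 8.41 in replicate 1, at least 621 nt from any Col0 site. The catalase CAT2 held a single peak of 10.02 and 8.75 near its start, 9.34% along the gene. NIA2, nitrate reductase, held 3 with folds of 2.24 to 3.22 in replicate 1, each within 100 nt of a Col0 site. This gene has 8 Col0 sites, and its peaks lay 6.43% to 85.5% along it. The 4 translation hosts were the elongation factor gene eEF1A4 (AT5G60390), the initiation factor EIF4A2 and the poly(A)-binding proteins PAB2 and PAB4. None of 3 reported targets of the reader held one, and 2 of 4 root markers, PIP2;2 and PYK10, did.

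The level of poly(A) sites near these peaks was compared between cpsf70 and Col0, a measure the choice of peaks did not use. The 835 nearby peaks led to 787 distinct sites, of which 39 also lay near a peak on m6A. Of these, 568 were listed in every table and could be tested. Another 39 of the 787 (4.96%) were listed in both Col0 tables and in no cpsf70 table, against 8.996% of all Col0 sites. Tests used limma on log2(TPM + 1) over all 13668 sites. In whole seedlings, fewer cells of a type and less RNA per cell cannot be told apart.

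Few sites near the peaks passed the test, and how their proportion stood to the background varied with the settings. At an adjusted p under 0.05, 11 of 568 passed (1.94%), with 3 higher and 8 lower in cpsf70. The background was 2.2% of all sites, 0.615% higher and 1.59% lower. At an unadjusted p under 0.05 the counts were 68 of 568 (12.0%) near the peaks and 8.85% of all sites. With robust eBayes 7.22% passed (30 higher, 11 lower) against 4.18% of all sites, and with a pseudocount of 0.1 it was 6.69% (25 higher, 13 lower) against 4.78%. After rescaling by median ratios 4 passed, all lower, or 0.704% against 0.249% of all sites. Near peaks on m6A 38 of 2346 passed, 3 higher and 35 lower.

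**Figure D4:**
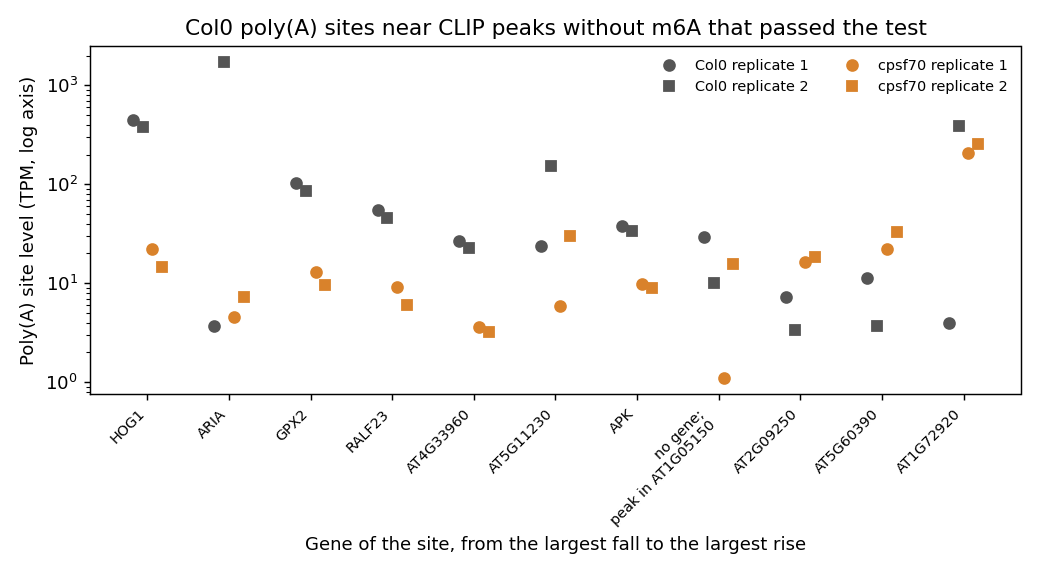
Level (TPM, log axis) of the 11 poly(A) sites near CLIP peaks without m6A that passed the limma test, in each of the 4 poly(A) libraries, ordered by log2 change. Col0 is grey and cpsf70 orange, with circles for replicate 1 and squares for replicate 2. These sites were chosen by the test, which favours sites where the genotypes do not overlap. ARIA and AT1G72920 turn on a single Col0 library.

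The steepest fall was at HOG1, the S-adenosylhomocysteine hydrolase that clears the product of methylation reactions. Its site at chr4:8056925-8057074 on the plus strand stood at 442 and 380 TPM in Col0 against 22.1 and 14.6 TPM in cpsf70. Both Col0 libraries were far above both cpsf70 libraries. The log2 change was −4.43 ± 0.49 (SE, n = 2 per group; adjusted p = 3.01e-16, limma with Benjamini-Hochberg). After rescaling by median ratios it was −4.49 with an adjusted p of 0.0416 (limma with Benjamini-Hochberg). The CLIP peak at this site, with folds of 4.49 and 6.01, was centred 16 nt upstream of the strongest cluster and ended 3 nt from an m6A peak, so it lies at the very edge of the rule.

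The falls at 4 other genes showed no overlap between the genotypes. GPX2, a glutathione peroxidase, stood at 103 and 85.0 TPM in Col0 against 12.9 and 9.52 TPM in cpsf70 (log2 change −2.97). The CLIP peak near this site lay at the end of the neighbouring gene AT2G31560 and 3 nt from an m6A peak, and the site is also near a peak on m6A. RALF23, a secreted peptide signal, stood at 54.5 and 45.3 TPM in Col0 against 9.27 and 6.07 TPM in cpsf70 (−2.57), 24 nt from a weak CLIP peak with folds of 2.29 and 2.12. AT4G33960 stood at 26.5 and 22.8 TPM in Col0 against 3.60 and 3.20 TPM in cpsf70 (−2.54), and its CLIP peak lay 20 nt from an m6A peak. HOG1, GPX2 and AT4G33960 are the 3 of the 11 passing sites whose peak lay within 100 nt of one. These 3 and RALF23 had adjusted p of at most 4.30e-05 (limma, Benjamini-Hochberg) and were lower in 2 of 2 cpsf70 libraries. The same 4 sites passed after rescaling by median ratios, with adjusted p of only 0.0416 to 0.0443 (limma, Benjamini-Hochberg). The RALF23 peak lay 5033 nt from the nearest m6A peak. APK, adenylylsulfate kinase of sulfur assimilation, stood at 38.3 and 33.6 TPM in Col0 against 9.78 and 9.03 TPM in cpsf70 (−1.82), with an adjusted p of 0.0137 (limma, Benjamini-Hochberg) that was 0.0745 after the rescaling and 0.0865 to 0.150 without any 1 of the 4 libraries.

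A pair of sites that rose lay inside or beside well-expressed genes. In AT5G60390, a gene of the translation elongation factor eEF1A, an inner site stood at 11.4 and 3.69 TPM in Col0 against 22.1 and 32.9 TPM in cpsf70. Its log2 change was 1.88 and both cpsf70 libraries were higher than both of Col0 (adjusted p = 0.00959, limma with Benjamini-Hochberg). Without Col0 replicate 2 the change was 1.17 and did not pass (adjusted p = 0.966), nor did the 1.599 without cpsf70 replicate 2 (0.288; limma with Benjamini-Hochberg), and eEF1A genes are near-identical copies. The lncRNA gene AT2G09250 overlaps the end of RR3, a cytokinin response regulator. Its site stood at 7.33 and 3.39 TPM in Col0 against 16.5 and 18.4 TPM in cpsf70, a log2 change of 1.61 (adjusted p = 0.0499, limma with Benjamini-Hochberg) that did not pass after the rescaling (0.192). It passed without Col0 replicate 1, and not without Col0 replicate 2 (1.14) or either cpsf70 library (1.68 and 1.53).

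The other 4 calls rested on unequal libraries. ARIA stood at 3.69 and 1731 TPM in Col0 against 4.57 and 7.18 TPM in cpsf70. Only Col0 replicate 2 was high, and without it the log2 change of −3.74 became 0.52. AT1G72920 stood at 3.93 and 386 TPM in Col0 against 207 and 257 TPM in cpsf70, and without Col0 replicate 1 its change of 2.41 became −0.74. AT5G11230 stood at 23.7 and 154 TPM in Col0 against 5.94 and 29.9 TPM in cpsf70, and its −2.08 was −0.75 without Col0 replicate 2 and −1.004 without cpsf70 replicate 1. A site at chr1:1486679-1486703 with no gene assigned, under a peak in AT1G05150, stood at 29.6 and 10.05 TPM in Col0 against 1.09 and 15.6 TPM in cpsf70; its −1.64 was −0.14 without cpsf70 replicate 1 and −0.90 without Col0 replicate 1. limma found a common spread for all sites, with the same standard error of 0.49 at each, so a site extreme in 1 library can pass.

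Next in size of rise, and short of the threshold, were PORB, a protochlorophyllide oxidoreductase, and PHI-1, a phosphate-induced gene. PORB stood at 18.8 and 8.00 TPM in Col0 against 32.2 and 46.5 TPM in cpsf70 (adjusted p = 0.0615, log2 change 1.57), and PHI-1 at 5.10 and 4.002 TPM against 18.8 and 11.3 TPM (adjusted p = 0.0895, log2 change 1.5; limma with Benjamini-Hochberg). For both, the cpsf70 libraries were all higher. The 5 most abundant nearby sites did not pass. CAB1, also named LHCB1.3, stood at 3807 and 2771 TPM in Col0 against 7531 and 6550 TPM in cpsf70, and its copy CAB3 at 4169 and 3427 TPM against 5115 and 4281 TPM. The site at CYP96A4 stood at 6.64 and 11576 TPM in Col0 against 5405 and 11.5 TPM in cpsf70, with 1 library of each genotype high. The other 2 were wide sites under rRNA genes on chromosomes 2 and 3, at 6182 and 12481 TPM and at 10111 and 15469 TPM in Col0.

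Sites near peaks without m6A had a slightly positive median change in cpsf70, and whether the genotypes separated hung on the scaling. Their median log2 change was 0.21 (quartiles −0.06 and 0.49), and 31.5% of the 568 had a negative change. Over all sites tested the median was 0.04 with 46.1% negative, and near peaks on m6A it was 0.05 with 44.4% negative. The median log2(TPM + 1) of the 568 sites was 4.48 and 4.16 for Col0 against 4.61 and 4.42 for cpsf70. In these values the genotypes overlapped, and the difference of 0.19 had p = 0.667 in a 2-sided exact permutation test, where 0.333 is the smallest value that 2 against 2 libraries allow. After rescaling by median ratios the medians were 4.37 and 4.32 for Col0 against 4.42 and 4.54 for cpsf70, the genotypes did not overlap, and the difference of 0.13 had an exact permutation p of 0.333. Between the libraries of replicate 1 the median difference near these peaks was 0.16, against 0.06 over all sites. Between those of replicate 2 it was 0.24, against 0.02. For cpsf70 replicate 1 and Col0 replicate 2 it was 0.48, against 0.33, and for cpsf70 replicate 2 and Col0 replicate 1 it was −0.05, against −0.21. In each of the 4 pairs the sites near the peaks thus stood above all sites, but the pairs share libraries and are not independent. Col0 replicate 2 differed from Col0 replicate 1 by −0.32 near the peaks and by −0.27 over all sites.

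The gap between the classes was narrower in both cpsf70 libraries than in both Col0 libraries. Sites near peaks without m6A alone had a median log2(TPM + 1) lower than sites near peaks on m6A alone by 0.34 and 0.39 in Col0 and by 0.26 and 0.04 in cpsf70. The change in this gap was 0.21, with an exact permutation p of 0.333, the smallest possible. Among sites with a mean of at least 10 TPM the median change was 0.18 near peaks without m6A, 0.06 near peaks on m6A and 0.05 over all.

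**Figure D5:**
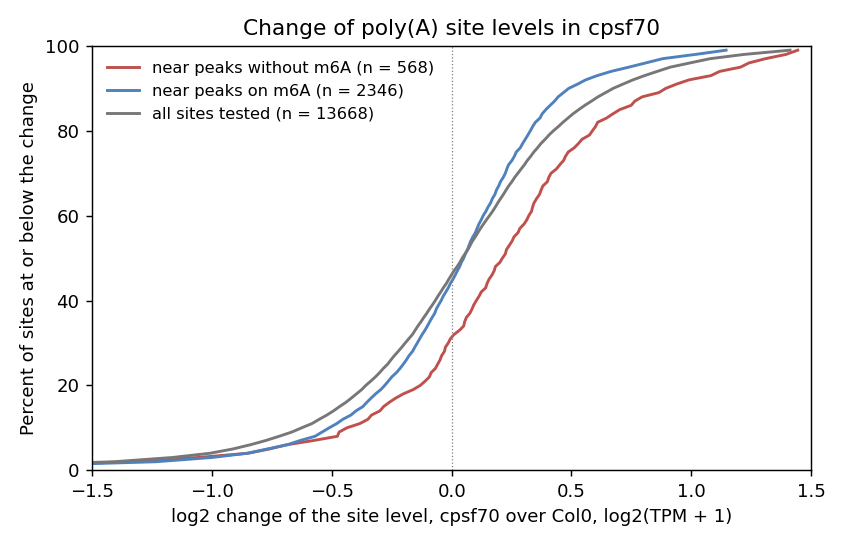
Percent of poly(A) sites at or below each log2 change of the site level (cpsf70 over Col0, log2(TPM + 1), from limma), shown between −1.5 and 1.5. The curve of the 568 sites near peaks without m6A lies to the right of both others, with 31.5% of its sites below 0, against 44.4% of the 2346 sites near peaks on m6A and 46.1% of all 13668.

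The median change was larger at sites far from the gene end. The 123 sites more than 300 nt before the gene end had a median of 0.41 near peaks without m6A, and the 420 closer to it or beyond it had 0.17. Over all sites the medians were 0.17 and 0.03, and near peaks on m6A 0.16 and 0.04.

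Sites were also split by their rank in Col0. The rank uses the Col0 levels that enter the change, which by itself favours a positive change at lower-ranked sites, so the split is a description. Of the 568 sites, 462 (81.3%) were the most abundant Col0 site of their gene and had a median change of 0.16. The 81 secondary sites of a gene had a median of 0.70, and 71 of them (87.7%) were higher in cpsf70. Over all tested sites the secondary ones had a median of 0.40 with 75.4% higher, and the most abundant ones 0.00 with 50.2% higher. Near peaks on m6A the secondary sites had 0.40 with 75.1% higher. Secondary sites near peaks without m6A lay a median of 668 nt before the gene end, against 309 nt for those near peaks on m6A. The median level of those near peaks without m6A was 9.24 and 6.77 TPM in Col0 against 13.1 and 17.8 TPM in cpsf70, so the genotypes did not overlap. The same held for all secondary sites, at 7.97 and 6.16 TPM against 9.78 and 9.68 TPM. It also held near peaks on m6A, at 11.5 and 8.62 TPM against 13.1 and 12.0 TPM. The lowest listed level differed between the cpsf70 tables, and its part in these levels was not tested.

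Totals of host genes changed about as often as those of other genes. Of 1458 hosts tested 25 passed (1.71%), 4 higher and 21 lower, against a background of 1.79% of 9993 genes, 0.24% higher and 1.55% lower. At an unadjusted p under 0.05 the counts were 100 of 1458 hosts (6.86%) and 6.82% of all genes. After rescaling by median ratios 9 passed (0.617%), all lower, against 0.540% of all genes, 4 higher and 50 lower. The median log2 change of the hosts was 0.06 and that of all genes 0.02.

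GLU1, with 4 peaks, showed the steepest fall among totals whose libraries of a genotype lay together: 233 and 183 TPM in Col0 against 16.7 and 12.5 TPM in cpsf70. The groups were far apart, with a log2 change of −3.74 ± 0.44 (SE, n = 2 per group; adjusted p = 1.42e-14, limma with Benjamini-Hochberg). EMB1303, a gene needed for embryo development, stood at 151 and 103 TPM against 17.0 and 8.37 TPM (−3.27), and the phosphate transporter PHT4;1 at 41.2 and 41.9 TPM against 5.66 and 5.09 TPM (−2.74). NTF2A, a nuclear import factor, stood at 26.8 and 31.2 TPM against 4.38 and 3.94 TPM (−2.54), and VAG2, a vacuolar proton pump subunit, at 30.3 and 26.8 TPM against 4.63 and 3.94 TPM (−2.48). In these 5 genes both cpsf70 libraries were lower than both of Col0, and each held 1 peak except GLU1. All 5 passed without any 1 library and after the rescaling.

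Some totals hung on a library. BAK1, a co-receptor kinase, stood at 229 and 185 TPM in Col0 against 14.2 and 82.5 TPM in cpsf70, and its change of −2.54 was −1.31 without cpsf70 replicate 1 and did not pass (adjusted p = 0.628, limma with Benjamini-Hochberg). The ubiquitin ligase gene KAK stood at 2006 and 9.10 TPM in Col0 against 29.2 and 6.07 TPM in cpsf70, and without Col0 replicate 1 its −3.29 became 0.53. AT1G54920 stood at 3.98 and 554 TPM against 0.772 and 3.20 TPM, and without Col0 replicate 2 its −4.27 was −0.87. GDPD2 stood at 37.3 and 41.2 TPM against 872 and 15.1 TPM, and without cpsf70 replicate 1 its 1.56 became −1.32.

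A total sums only sites listed in all 4 tables, and the RALF23 total is a single site, as is that of AT4G33960. When clusters were joined with gaps of at most 10 nt, the RALF23 total changed by −0.36 and did not pass (adjusted p = 1.00, limma with Benjamini-Hochberg). No host in the gene lists passed in totals or in site use.

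Most host genes had a change of site use toward the proximal site in cpsf70, as most of all genes did. For the 2 most abundant sites of a gene, use is log2((distal + 1) / (proximal + 1)), so a negative change is a shift to the proximal site. Of 418 hosts tested, 3 passed, all negative (0.718%), against a background of 0.574% of 1915 genes. At an unadjusted p under 0.05 the counts were 85 of 418 (20.3%) and 18.5% of all genes. The median change was −0.54 with 78.5% negative in hosts of peaks without m6A, −0.41 with 72.0% negative in all genes, and −0.55 with 76.6% negative in hosts of peaks on m6A.

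In HOG1 the distal site, at 442 and 380 TPM in Col0, fell to 22.1 and 14.6 TPM, while the proximal one stood at 63.8 and 35.7 TPM in Col0 against 122 and 134 TPM in cpsf70. Its use changed by −5.83 ± 0.43 (SE, n = 2 per group; adjusted p = 0.0213, limma with Benjamini-Hochberg), with both cpsf70 libraries below both of Col0. HOG1 held 2 peaks without m6A, the other 65.8% along the gene. In AT3G56310 the distal site went from 50.7 and 47.7 TPM to 7.47 and 7.88 TPM and the proximal one from 7.33 and 3.39 TPM to 10.8 and 11.8 TPM (−3.56, adjusted p = 0.0322, lower in 2 of 2 cpsf70 libraries; limma with Benjamini-Hochberg).

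The third was emb1138, a chloroplast RNA helicase gene. Its distal site stood at 107 and 79.1 TPM in Col0 against 52.5 and 48.1 TPM in cpsf70, and its proximal site at 3.19 and 3.39 TPM and 16.5 and 18.3 TPM (−2.96, adjusted p = 0.0442, lower in 2 of 2 cpsf70 libraries; limma with Benjamini-Hochberg). None of the 3 passed without Col0 replicate 2, where the adjusted p was 0.211 (limma, Benjamini-Hochberg). Without Col0 replicate 1, AT3G56310 and emb1138 did not pass either, at −3.98 and −2.71, and emb1138 was at −2.83 without cpsf70 replicate 2 and did not pass. SAM-2, an S-adenosylmethionine synthase gene with 2 peaks, came next at −2.62 with an adjusted p of 0.0503 (limma, Benjamini-Hochberg). Its distal site stood at 77.9 and 69.0 TPM in Col0 against 27.0 and 23.9 TPM in cpsf70.

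The RNA-seq table holds 168 genes, none with a p-value above 0.05, so it was preselected and gives no count of unchanged genes. A peak without m6A lies in 33 (19.6%) of the genes of the authors' deposited table, 29 of them higher and 4 lower in cpsf70, against 99 higher and 69 lower in all. The 33 were counted by the peak midpoint and include genes that are not protein-coding. Counted by any overlap, such a peak met 7.54% of all protein-coding genes, 12.5% of those at 10 to 30 TPM and 29.0% of those above 100 TPM. The listed genes were not matched for level. How the fold was computed is not stated, and for 31 of the 33 hosts it lay within 5% of the ratio of mean FPKM + 1, against 25 for the plain ratio in the authors' deposited table, so folds of genes at low levels lie closer to 1. The 5 highest folds among hosts in the authors' deposited table were 3.45 for AT2G11910, 2.54 for AT2G43620, 2.34 for AT4G27654, 2.25 for the transcription factor WRKY15 and 2.24 for AT3G07110. By the plain ratio of mean FPKM in the authors' deposited table, AT4G27654 (2.85) would precede AT2G43620 (2.69), and AT1G72060 (2.30, with a fold of 1.74) would precede AT3G07110 (2.26), while AT5G07745 is listed at 0 in both Col0 libraries. WRKY15 stood at 25.0 and 24.5 FPKM in Col0 against 57.0 and 57.5 FPKM in cpsf70 in the authors' deposited table. The lower ones were CPSF30 itself, VSP2 (0.667), BGLU18 (0.620) and AT5G09620 (0.485) in the authors' deposited table. The values of AT5G09620 there were 33.6 and 0.568 FPKM in Col0 against 0.721 and 36.4 FPKM in cpsf70, with 1 library of each genotype high, so its direction rests on unequal libraries.

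The values of HOG1 in the authors' deposited table were 401 and 397 FPKM in Col0 against 739 and 720 FPKM in cpsf70, a fold of 1.83, while its distal poly(A) site fell as given above. The antenna genes LHCB2.1 and LHCB2.2 had folds of 1.71 and 1.67 in the authors' deposited table. Their poly(A) totals had log2 changes of 0.26 and 0.10 and did not pass the test.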

How the data were processed

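Peaks without m6A were chosen, and gene lists and tests set, with earlier results of these data known. Tools listed in the submitters' processing notes are MACS2 2.2.5, HISAT2 2.1.0 and cutadapt 1.18, without order or settings, and the build is TAIR10. Peak tables deposited by the authors, one for each m6A or CLIP replicate, have no strand and give a fold enrichment and a −log10 p-value per peak, per the file headers. Inside the CLIP tables the replicate numbers are swapped relative to the sample titles, which were followed. The control behind the peak calls is not stated in the labels, and the CLIP samples of Col0 are not analysed here. The authors deposited poly(A) clusters with levels in TPM, and FPKM with a fold (ratio) and p-value for the RNA-seq genes, per the file headers; the fold lay nearer a ratio of FPKM + 1 than of FPKM. TPM tables give no read counts, so no interval was set on levels. Only clusters listed by the authors enter (3 TPM or more in Col0 and in cpsf70 replicate 2, down to 0 TPM in cpsf70 replicate 1).

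Clusters on a strand were joined at gaps of at most 24 nt; nearby means a gap of at most 100 nt on either strand. A peak belongs to the gene at its midpoint (152 of them lay in more than 1 gene), and shares of genes count any overlap. Gene names and spans came from RefSeq (TAIR10.1), without strand. Strands were inferred from Col0 tags in the outer 40% of the span with 200 nt beyond, or else from tags inside the gene if 90% or more were on 1 strand, a rule set while looking at the data. This gave 15591 genes a strand, mostly expressed ones. Sites were assigned only to these, so a gene without a strand counts as having no Col0 site. Neither exons nor genome sequence were used here. Tests were limma 3.58.1 in R 4.3.3 with eBayes, 2-sided, Benjamini-Hochberg over all features at 0.05, on log2(TPM + 1), which understates changes of low values; limma was tested on simulated data. Shares carry exact 95% binomial (Clopper-Pearson) intervals.

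Named were the 10 peaks with the highest smaller fold, nearby sites past the threshold (up to 10), the 5 largest rises and falls, the 5 most abundant nearby sites, the 5 hosts with most peaks, hosts in the gene lists, hosts called in use (up to 10), and up to 5 RNA-seq hosts per direction. Called totals, hosts with 4 peaks and SAM-2 were named after their values were seen.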

Additional observations from a re-analysis of the deposited data

How the results depend on the processing

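The share of peaks within 100 nt of a Col0 site, 28.6%, was 25.4% within 50 nt, 33.6% within 200 nt, 43.6% for the 574 peaks with a −log10 p of at least 10, and 25.3% with no m6A peak within 100 nt. It was 28.2% with a CLIP overlap over most of the peak, 28.1% from replicate 2 and 28.0% with single clusters, which was chosen after seeing the data. The 11 site calls (1.94%, against 2.2% of all sites) became 38 with a pseudocount of 0.1 (6.69% against 4.78%), 41 with robust eBayes (7.22% against 4.18%), 4 after rescaling by median ratios (0.704% against 0.249%), 7 with gaps of at most 10 nt (1.25% against 1.95%) and 45 with absent values set to 0 (5.72% against 15.9%). The 25 totals became 9 after rescaling and 14 to 21 without a library. The 3 calls of site use (0.718%, against 0.574% of all genes) became 10 with robust eBayes (2.39% against 1.83%). They became 1 with a filter of 10 TPM (0.426% against 0.247%) and varied without a library. Signs turned, without a library, at ARIA (−8.00 to 0.52), AT1G72920 (−0.74 to 5.55, site and total), CYP96A4 (−5.48 to 5.09, with 4.18 without cpsf70 replicate 2), KAK (−7.10 to 0.53), GDPD2 (−1.32 to 4.44) and the rRNA sites (−0.60 to 0.017 on chromosome 3, −0.98 to 0.037 on chromosome 2), and with gaps of at most 10 nt in APK use (−0.48). The median difference of 0.19 ranged from 0.03 to 0.35 without a library and was 0.13 after rescaling (exact permutation p = 0.333). The causes were not tested. With a replicate block, limma left 0 site calls (118 at an unadjusted p under 0.05), against 0 of all sites. Totals left were 0 (288 at that unadjusted p), against 1 of all genes. Calls of site use were 14 (3.35% against 3.19% of all genes). The unadjusted shares over all features are not given for the block. Deviations of same-numbered libraries correlated at 0.20 over 2 pairs, so the numbers are not shown to pair samples. A call lost with the block is no weaker effect. Read depth is not given, and 2 libraries per group limit every test.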
